A study of Culex quinquefasciatus with 4 samples.

Results

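In larvae of Culex quinquefasciatus, the southern house mosquito, 147 genes had at least 2-fold less transcript in each of 3 libraries made at 24 h than in the library of untreated larvae made at 0 h. They were chosen on RNA sequencing values from the 13345 genes in the table, and the values that chose them are given here as a description. A gene was taken if its log2(FPKM + 1) in untreated larvae exceeded that in acetone and in permethrin at each of the LC50 and LC70 by 1 or more each. FPKM, fragments per kilobase of transcript relative to all mapped fragments, is a level scaled to transcript length and to library size. The gene also had to reach 5 FPKM in untreated larvae, to be above 0 in every library, and to carry an identifier number under 20000 or from 40000. Apart from the lower levels at 24 h, 7616 genes met these criteria and are called the eligible genes. The 147 are 1.93% of them.

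The labels give 4 groups, each 1 library from a pool of 200 whole larvae in the fourth instar: untreated at 0 h, and after 24 h in acetone, a solvent, in permethrin at its LC50 or at its LC70. Permethrin is a pyrethroid, an insecticide that keeps the sodium channels of nerve cells open. The LC50 and LC70 are the concentrations lethal to 50% and 70% of larvae, called doses below. The labels name no strain, and larvae without treatment were sampled at 0 h alone, so time, acetone and handling cannot be told apart in any comparison with the untreated library. With 1 pool a group there is no replicate error and no test, every value below is that of 1 library, and fewer cells of a type cannot be told apart from less RNA per cell.

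The fourth instar is the last stage in which a mosquito larva feeds, and it ends with the moult to the pupa. As background, that moult is driven by ecdysteroid hormones while juvenile hormone declines, and during an instar the transcripts of cuticle proteins, digestive enzymes and storage proteins are known to come and go on a schedule. Neither the files nor the reference table pair the identifiers with gene names, so none of the 147 genes could be placed in these groups, no marker of tissue or stage could be read, and no sequence is printed. Genes are therefore described by level, by pattern over the libraries and by identifier number.

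In untreated larvae the median level of the 147 genes was above that of the eligible genes, though 31 of the 147 had only 5 to 20 FPKM. Their untreated levels ran from 5.17 to 13640 FPKM with a median of 72.0 FPKM, against a median of 15.3 FPKM over the eligible genes. In acetone the median was 19.8 FPKM, under the LC50 16.4 FPKM and under the LC70 17.4 FPKM. Of the 147 genes, 17 had 1000 FPKM or more in untreated larvae, 8 did in acetone, 6 under the LC50 and 5 under the LC70. Of the 100 genes with the highest untreated FPKM in the whole table, 11 were among the 147. It was 2 of the 100 highest in acetone, 0 of the 100 highest under the LC50 and 1 of the 100 highest under the LC70. The untreated value is part of the rule, and the lower levels and counts at 24 h follow from it.

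The share of eligible genes that met the rule was larger in each higher class of untreated level. From 5 to 20 FPKM it was 31 of 4523 genes (0.685%), from 20 to 100 FPKM 52 of 2184 (2.38%), from 100 to 1000 FPKM 47 of 743 (6.33%), and from 1000 FPKM 17 of 166 (10.2%). The untreated value enters the rule itself, and a pseudocount of 1 makes a 2-fold difference harder to reach for low genes.

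As a group the 147 genes made up 8.46% of all FPKM summed in the untreated library, 3.50% in acetone, 2.04% under the LC50 and 2.27% under the LC70. Of the 147 genes, the 10 highest in untreated larvae made up 64.3% of the group's summed FPKM in that library. These 10 took 5.44% of all FPKM summed in the untreated library, 2.27% in acetone, 1.15% under the LC50 and 1.21% under the LC70. The direction of these shares follows from the rule.

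**Figure D1:**
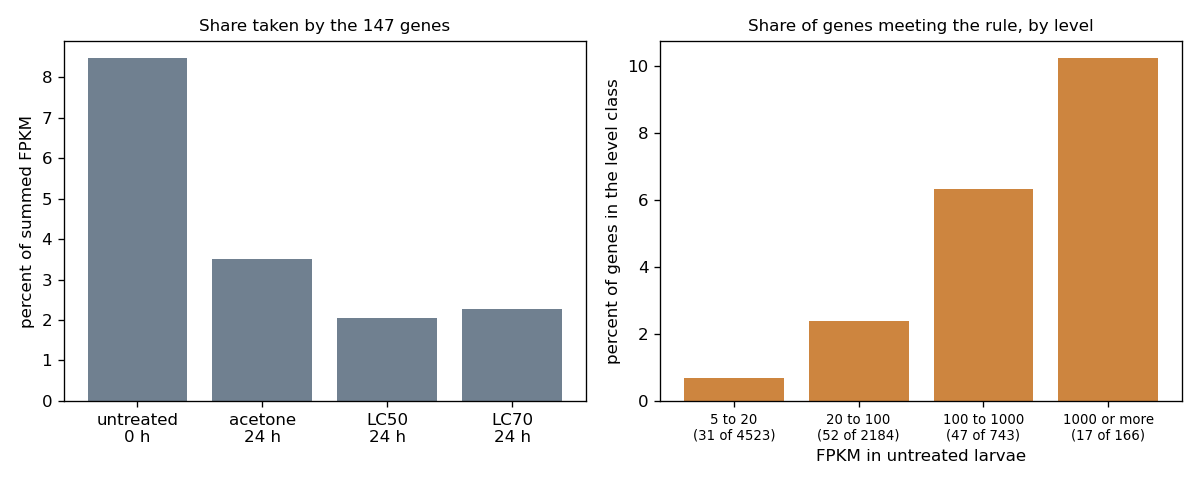
Left, the percent of each library's summed FPKM taken by the 147 genes, 1 bar per library: 8.46% in untreated larvae against 2.04% to 3.50% at 24 h. Right, the percent of eligible genes in each class of untreated FPKM that met the rule, from 0.685% in the lowest class to 10.2% in the highest.

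The contrasts that chose the genes were of similar breadth. Acetone was at least 2-fold under untreated larvae in 332 eligible genes (4.36%), the LC50 in 328 (4.31%) and the LC70 in 344 (4.52%). All 3 contrasts share the untreated library, so a high untreated value alone would place a gene in each. In the 147 genes the median difference from untreated larvae was 1.56 in acetone, 1.82 under the LC50 and 1.74 under the LC70 on the log2(FPKM + 1) scale, and over the eligible genes it was 0.13, -0.19 and -0.22. The LC70 and LC50 libraries differed by up to 0.53 on that scale in 95% of eligible genes, which includes any effect of dose. This pair lay closest, so 0.53 does not measure how far other pairs lie apart. Between them 0.551% of eligible genes were at least 2-fold higher under the LC70 and 0.105% lower. Against acetone it was 4.71% and 1.29% under the LC50, and 5.72% and 1.51% under the LC70.

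Among the 147 genes CPIJ013538 had the deepest difference, if each gene is judged by the smallest of its 3. Not ranked were 23 genes listed at 0 in a library, with 5 FPKM or more untreated and all 3 differences at 1 or more. CPIJ013538 had 32.4 FPKM in untreated larvae, 0.817 in acetone, 0.339 under the LC50 and 0.667 under the LC70. At 24 h 1.04% to 2.52% of the untreated level was thus present, with differences of 4.20, 4.64 and 4.33 (log2) in that order. It was the only one of the 147 genes with all 3 differences at 3 or more. CPIJ008878 followed, with 13.3 FPKM in untreated larvae and 0.0952, 0.922 and 0.602 FPKM in acetone, under the LC50 and under the LC70. In both genes the 3 values at 24 h all lay below 1 FPKM, where few fragments may lie behind a value. Their order and the exact size of the differences thus carry little weight.

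For 22 of the 147 genes the smallest difference was 2 or more, that is 4-fold on the log2(FPKM + 1) scale, and for 34 it was under 1.1. Just inside the limit were CPIJ004228, whose smallest difference was 1.0007, and CPIJ015631, with 1.0014. CPIJ004228 had 1160 FPKM in untreated larvae, 579 in acetone, 137 under the LC50 and 122 under the LC70. Just outside were CPIJ017149 with 0.9986 and CPIJ009715 with 0.9983. CPIJ009715 had 1050 FPKM in untreated larvae, 525 in acetone, 56.1 under the LC50 and 48.5 under the LC70, in the same order of libraries as CPIJ004228. A total of 38 eligible genes lay between 0.9 and 1, CPIJ017149 and CPIJ009715 included, so the edge of the set is not a gap.

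Differences among the 24 h libraries did not choose the genes, although the rule sets a ceiling on all 3 values. In 114 of the 147 genes the 24 h libraries were all within 2-fold of each other, or 77.6%, against 90.7% of the eligible genes. Their median range over the 3 libraries was 0.34 on the log2 scale. CPIJ001820, the second highest gene in untreated larvae, is of this kind. It had 6341 FPKM in untreated larvae, 1117 in acetone, 1165 under the LC50 and 1056 under the LC70, so that 16.7% to 18.4% of the untreated level was present in each 24 h library. CPIJ018824, named after its values were seen, had 203 FPKM in untreated larvae and 33.7, 33.1 and 32.8 FPKM at 24 h.

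**Figure D2:**
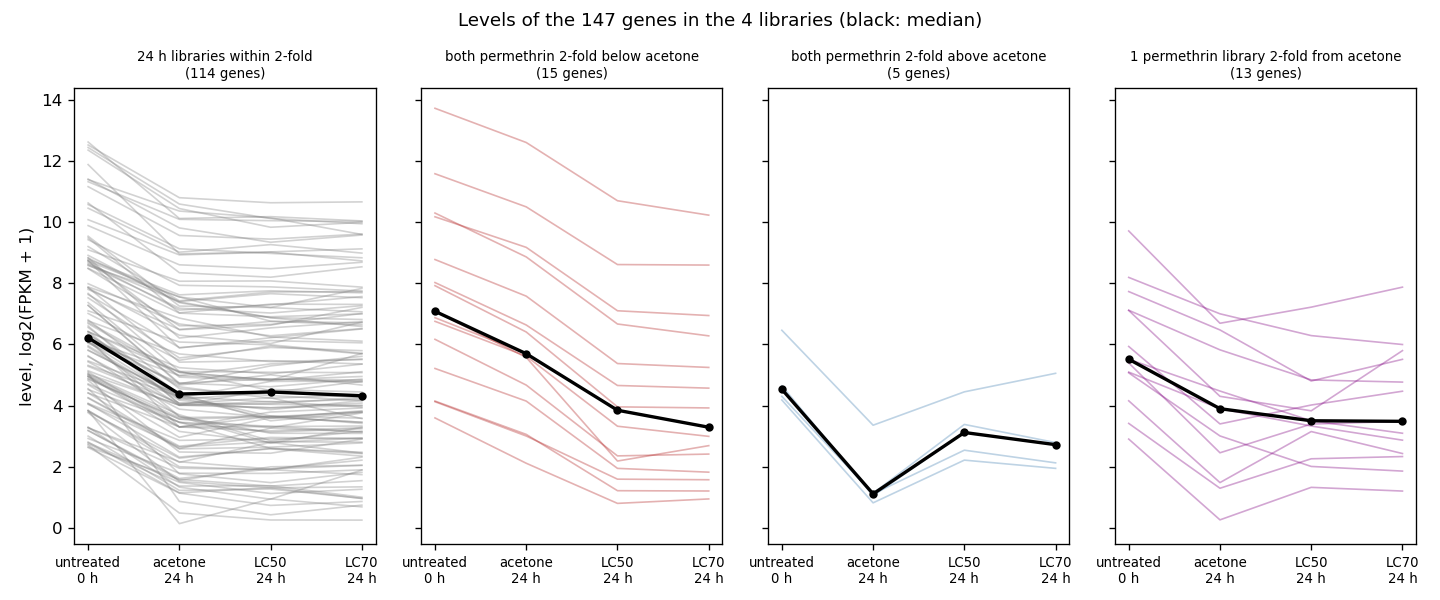
Levels as log2(FPKM + 1) of the 147 genes in the 4 libraries, 1 line per gene and the median in black, split by how the permethrin libraries compared with acetone. In 114 genes the 24 h values were within 2-fold of each other. In 15 both permethrin libraries were at least 2-fold below acetone, and in 5 both were at least 2-fold above it. In 13 only 1 permethrin library was 2-fold away.

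A smaller group of 15 genes was lower again under permethrin. In these, both permethrin libraries were at least 2-fold below acetone, which was itself at least 2-fold below untreated larvae. They are 10.2% of the 147 genes, against 1.13% of the eligible genes with both permethrin libraries at least 2-fold below acetone. The rule shapes this comparison. It takes every eligible gene with the pattern, so the 15 are all those with it among the 332 eligible genes lower in acetone. It leaves out genes lower in acetone whose permethrin values are not low. How much of the difference in share this sets was not tested. The median of the 15 genes was 135 FPKM in untreated larvae, 50.9 in acetone, 13.4 under the LC50 and 8.78 under the LC70. Taken gene by gene, LC70 minus LC50 had a median of -0.09 (log2), with quartiles of -0.24 and -0.01. The medians of the permethrin libraries thus lie further apart than most of the genes did. The differences of the 15 genes from untreated larvae ran from 1.00 to 1.52 in acetone, from 2.54 to 4.90 under the LC50 and from 2.56 to 4.40 under the LC70 (log2). That permethrin lies beyond acetone here follows from how the 15 were grouped. With the libraries scaled by their median ratio the group held 20 genes, and with one total after the 50 highest genes were left out it held 7, with the set itself chosen again under each scaling as 178 and 98 genes. Held to the same 147 genes it was 22 under either scaling. Whether the larvae pooled under permethrin were alive at collection is not stated in the labels, so survival and exposure cannot be told apart.

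CPIJ002743 was the most abundant of the 15 and of all 147 genes. It had 13640 FPKM in untreated larvae, 6272 in acetone, 1671 under the LC50 and 1205 under the LC70. That is 1.44% of the summed FPKM of the untreated library in a single gene, with 46.0% of the untreated level present in acetone, 12.3% under the LC50 and 8.83% under the LC70. The largest step from acetone belonged to CPIJ004320, at 135 FPKM in untreated larvae, 46.7 in acetone, 3.54 under the LC50 and 5.43 under the LC70. Its difference from acetone was -3.39 under the LC50 and -2.89 under the LC70 (log2). CPIJ008530 came next under the LC50, with 242 FPKM in untreated larvae, 83.9 in acetone, 14.5 under the LC50 and 14.1 under the LC70. CPIJ018121 came next under the LC70, at 107, 48.1, 9.00 and 6.95 FPKM in the same order. The 15 genes made up 2.17% of all FPKM summed in the untreated library, 1.22% in acetone, 0.271% under the LC50 and 0.244% under the LC70.

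The opposite pattern, acetone lowest with both permethrin libraries at least 2-fold above it, was seen in 5 genes, or 3.40% of the 147 against 2.97% of the eligible genes. That share is near the background. These genes were of low level in acetone, from 0.757 to 9.24 FPKM, and had untreated levels from 17.1 to 87.3 FPKM. CPIJ005479 had the largest difference under the LC50, with 22.2 FPKM in untreated larvae, 1.18 in acetone, 9.42 under the LC50 and 5.90 under the LC70. CPIJ009045 was similar, at 24.0, 1.06, 7.68 and 5.58 FPKM. CPIJ010515 had the largest difference under the LC70, at 87.3 FPKM in untreated larvae, 9.24 in acetone, 20.8 under the LC50 and 32.2 under the LC70. The count of 5 rests on low acetone values, and with a pseudocount of 5 it was 0. In the remaining 13 genes 1 permethrin library alone was 2-fold from acetone, lower in 6 genes and higher in 7.

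Dose by dose, 16 of the 147 genes were at least 2-fold lower under the LC50 than in acetone, or 10.9%, against 1.29% of the eligible genes, and 7 were at least 2-fold higher, or 4.76%, against 4.71%. Under the LC70 20 were lower, or 13.6%, against 1.51%, and 10 were higher, or 6.80%, against 5.72%. The genes lower than acetone were thus a larger part of the 147 than of the eligible genes, and those higher were not far from the background. Both comparisons use the same acetone library. The rule puts 1 ceiling on all 3 values, while over the eligible genes permethrin levels lay above acetone, so it asks for a larger departure from other genes under permethrin. Eligible genes low in acetone but not under permethrin are left out by the rule. Both the lower and the higher shares thus depend on the rule, and how much of them it sets was not tested. With median-ratio scaling the same 147 genes gave 25 lower and 5 higher at the LC50, and 28 lower and 4 higher at the LC70. Over the eligible genes that scaling gave 167 lower and 167 higher, and 194 lower and 136 higher.

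The medians are subject to the same selection. The median difference from acetone was -0.12 under the LC50 and -0.03 under the LC70 (log2), and over the eligible genes it was 0.29 and 0.33. The LC50 was below acetone in 86 of the 147 genes and the LC70 in 80, or 58.5% and 54.4%, against 15.7% and 17.4% of the eligible genes. The lowest of the 24 h libraries was acetone in 48 of the 147 genes, the LC50 in 47 and the LC70 in 52, whereas acetone was lowest in 77.5% of the eligible genes. When each library was divided by its median ratio to a geometric mean over libraries, which brought the medians of the eligible genes to -0.01 and 0.00, the 147 genes were at -0.41 and -0.35, with 116 and 112 of them below acetone. When the rule was applied again to the values so scaled, it took 178 genes with medians of -0.24 and -0.22. In the classes of untreated level from 5, 20, 100 and 1000 FPKM, the median difference under the LC50 was 0.05, -0.12, -0.12 and -0.17 in the 147 genes. Over the eligible genes of the same classes it was 0.30, 0.30, 0.19 and 0.21.

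**Figure D3:**
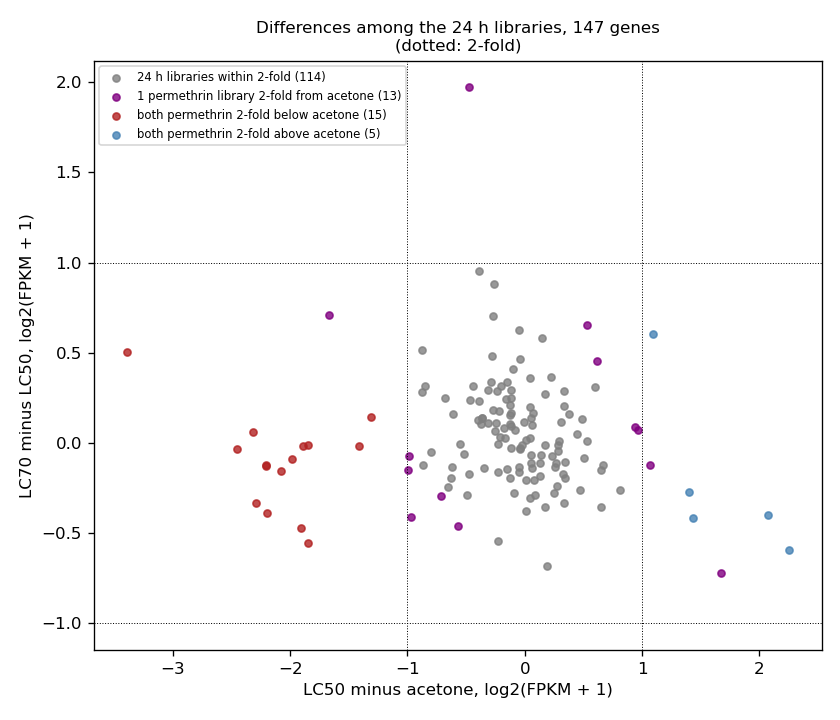
Differences on the log2(FPKM + 1) scale among the 24 h libraries for the 147 genes, 1 point per gene: LC50 minus acetone on the x axis and LC70 minus LC50 on the y axis, which share the LC50 library. Dotted lines mark 2-fold. Points spread to -3.39 and 2.25 along x, and along y 1 gene, at 1.97, lies beyond 2-fold.

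The permethrin libraries were next compared with each other. Under the LC70 1 gene was at least 2-fold higher than under the LC50, or 0.680%, against 0.551% of the eligible genes, and 0 were at least 2-fold lower, against 0.105%. The median difference was -0.01 on the log2 scale, and 71 genes were higher and 76 lower under the LC70. Regardless of sign, the median difference was 0.17 in the 147 genes and 0.14 in the eligible genes, and 14 of the 147 (9.52%) lay beyond the 0.53 that 95% of eligible genes stayed within. The single gene was CPIJ801847, at 138 FPKM in untreated larvae, 18.7 in acetone, 13.2 under the LC50 and 54.6 under the LC70. No gene was 2-fold below acetone at one dose and 2-fold above it at the other.

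The identifier numbers, which the rule used only to leave a range out, were not spread evenly. Of the 147 genes, 53 had another of the 147 within 5 numbers, or 36.1%, against 7.31% of the eligible genes with one of the 147 other than themselves that near. For directly following numbers it was 37 genes, or 25.2%, against 2.30%. Whether neighbouring numbers are neighbouring genes, or copies similar enough to share reads, cannot be read from the table. No pair of the 147 genes shared all 4 values. Another 122 genes were at least 2-fold higher in all 24 h libraries than in untreated larvae (with at least 5 FPKM in each 24 h library). Of these, 27.9% had another of the 122 within 5 numbers, against 5.86% of the eligible genes. The 122 had no untreated minimum, with levels from 0.753 FPKM, so not all of them are eligible genes. The feature was thus not particular to the lower genes.

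The 53 genes formed 24 runs, 20 of 2 genes, 3 of 3 genes and 1 of 4 genes. The run of 4 went from CPIJ801709 to CPIJ801713 and lacked only CPIJ801710. CPIJ801711 had 427 FPKM in untreated larvae, 58.1 in acetone, 73.6 under the LC50 and 90.0 under the LC70, and CPIJ801712 had 431, 88.4, 98.2 and 147.6 FPKM in the same order. CPIJ801709 and CPIJ801713 were much lower, at 8.78 and 22.5 FPKM in untreated larvae and at 0.910 to 2.70 FPKM in the 24 h libraries. CPIJ801711 and CPIJ801712 are outside the naming rule and were chosen after their values were seen, as was CPIJ008877 below. In each of the 4 genes the LC70 was the higher of the permethrin libraries.

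Runs could be alike or mixed. CPIJ015122, CPIJ015123 and CPIJ015124, named after their values were seen, were all abundant, with 2729, 2301 and 1411 FPKM in untreated larvae and 901, 759 and 519 FPKM in acetone. Their values under the LC50 were 651, 698 and 617 FPKM, below acetone in CPIJ015122 and CPIJ015123 and above it in CPIJ015124. In each gene the 24 h libraries were within 2-fold of each other. CPIJ018231 and CPIJ018233, chosen in the same way, differed 85.4-fold in untreated level, at 36.1 and 3085 FPKM. Both belonged to the 15 genes lower again under permethrin, with 2.84 and 392 FPKM under the LC50 against 16.7 and 1454 FPKM in acetone.

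CPIJ008876, CPIJ008877 and CPIJ008878 were mixed. The first had 439 FPKM in untreated larvae, 191 in acetone, 40.5 under the LC50 and 37.0 under the LC70 and was one of the 15. The second had 17.1, 0.757, 3.63 and 2.84 FPKM and was one of the 5 with the opposite pattern. In 12 of the 20 runs of 2 both genes had the same one of the 4 patterns, or 60%, against 61.8% of all pairs of the 147 genes. In the runs of 2, the genes differed by a median of 0.39 (log2) in LC50 minus acetone, against 0.58 over all pairs of the 147 genes. In untreated minus acetone they differed by 0.66, against 0.53 over all pairs, so nearness of number did not go with a closer likeness in that difference.

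**Figure D4:**
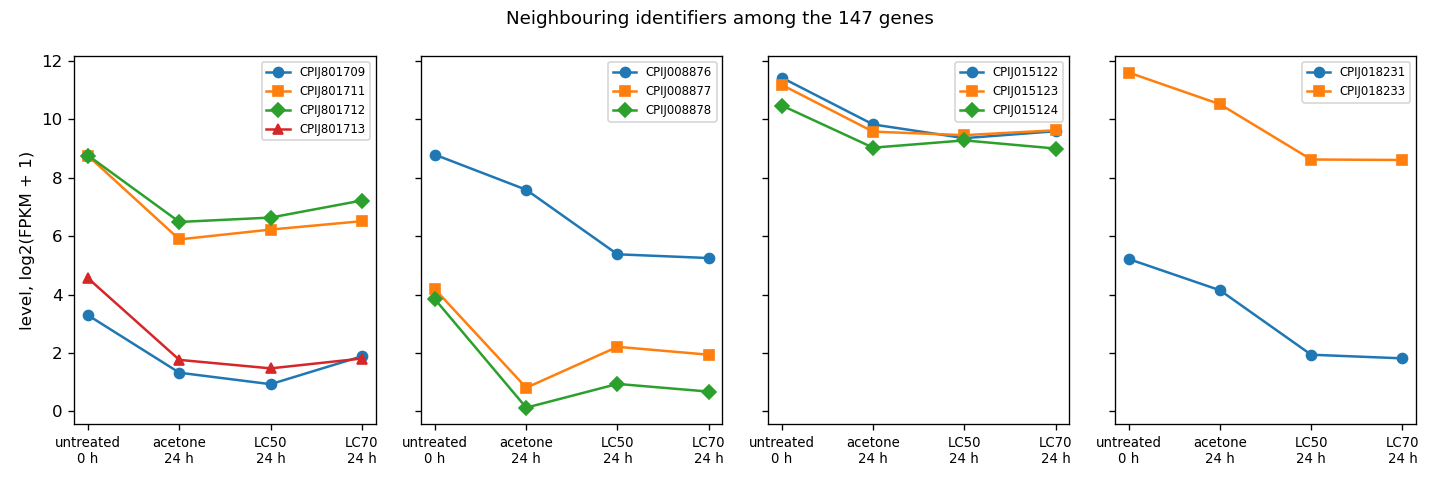
Levels as log2(FPKM + 1) in the 4 libraries of 4 runs of neighbouring identifiers, 1 line per gene. All genes are lower at 24 h. Each gene of the CPIJ015122 run has 24 h values within 2-fold of each other. CPIJ018231 and CPIJ018233 step down again under permethrin. In the CPIJ008876 run the first gene steps down while the others are lowest in acetone.

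Eligible genes that were not among the 147 but lay within 5 numbers of one were also lower more often. Of these 504 genes, 136 were lower in all 24 h libraries than in untreated larvae by any amount (27.0%), against 19.2% of the 6965 other eligible genes. By 0.5 or more on the log2 scale in all 3 it was 56 genes (11.1%), against 4.01%. The 504 genes also had a higher median untreated level, 19.2 against 14.8 FPKM, and the part of level in this difference was not tested.

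Numbers from 800000 were carried by 23 of the 147 genes, or 15.6%, against 8.22% of the eligible genes. In these 23 genes the median of LC70 minus LC50 was 0.13 (log2), against -0.01 in the 124 genes with lower numbers and 0.03 over the 626 eligible genes with numbers from 800000. What sets these identifiers apart in the annotation is not given in the sources used here.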

How the data were processed

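Pools of 200 whole larvae were sequenced as paired ends of 51 nucleotides, per the labels' protocols. The submitters' processing notes name CASAVA 1.8, Trimmomatic, TopHat, Cufflinks and Cuffdiff. Their settings, with the build and annotation, were not given in the sources used here. The deposited table holds 1 FPKM value per gene and library. As its header states no unit, FPKM was inferred from that pipeline and from the values. Read depth is unknown, so no counting interval is given. Every gene reached at least 1.00 FPKM in some library, so genes low throughout are not in the table.

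Differences were computed as log2(FPKM + 1) on the deposited values. They understate changes of low genes. With 1 library per group no test was run. Identifiers were searched for in a reference table of 18458 genes (assembly VPISU_Cqui_1.0_pri_paternal), and 0 of 13345 matched, so no gene list could be used. The genes, patterns and comparisons were chosen with earlier results of these data known. Named are the pair with the deepest smallest difference, the most abundant pair, the extremes of each difference among the 24 h libraries past 2-fold, the genes at the limit and the ends of the longest runs (the lower number where tied). Other names, inner genes of runs included, were chosen after their values were seen. The applied rule was tested on simulated data, a check of the code that does not measure noise in these libraries. Of 188 genes lower by 1 or more in all 3 contrasts, 18 were under 5 FPKM in untreated larvae and 23 more were listed at 0 in a library. Alternatives were pseudocounts of 0.1 and 5, a 4-fold threshold, untreated minimums of 1 and 20 FPKM, identifier distances of 1 and 10, median-ratio scaling, and one total after the 50 highest genes were left out. Python 3.11.15, numpy 2.4.6, pandas 2.3.3 and matplotlib 3.10.9 were used.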

Additional observations from a re-analysis of the deposited data

How the results depend on the processing

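The set held 147 genes, and from 98 to 178 under the scalings, pseudocounts and untreated minimums. Median-ratio scaling kept 138 of the 147 genes among its 178, and one total without the 50 highest genes kept 98, with 2 of the 147 among the genes left out by construction. A 4-fold threshold kept 22 genes, which took 1.55%, 0.318%, 0.283% and 0.330% of the summed FPKM of untreated larvae, acetone, the LC50 and the LC70, and 0 of them passed 4-fold in any of the comparisons among the 24 h libraries, fewer by construction. Counts higher under the LC50 than in acetone (7) were 12 and 1 with pseudocounts of 0.1 and 5, and 3 from 20 FPKM. Counts higher under the LC70 (10) were 3 with a pseudocount of 5, 5 with median-ratio scaling and 6 with one total. Counts lower were 10 under the LC50 (16) and 8 under the LC70 (20) with one total, and 10 under the LC70 with a pseudocount of 5. Genes 2-fold higher under the LC70 than under the LC50 (1) were 2 with a pseudocount of 0.1 and with one total. The 15 genes with both permethrin libraries lower were 7 with one total, and the 5 with both higher were 10 and 0 with pseudocounts of 0.1 and 5, 3 with each scaling and 3 from 20 FPKM. The share in acetone (3.50%) was 2.17% with one total. The cause was not tested beyond what is said. The patterns by permethrin were added after the data were seen. The share of genes with a near identifier ran from 25.2% to 42.2%, at identifier distances of 1 and 10. The eligible genes with 1 of the 147 that near were 2.30% and 13.4%. The counts above come from sets chosen again under each setting. Held to the same 147 genes, one total gave 25 lower under the LC50, 24 lower under the LC70 and 22 lower under both, and all were lower in every 24 h library than in untreated larvae under each scaling. No paired analysis was possible because the groups have 1 library each, and no replicate could be left out. Depth is unknown and limits values near or below 1 FPKM.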
